A study of Mus musculus with 6 samples.

Results

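Protein kinase D, the class IIa histone deacetylases and the MEF2 transcription factors form a relay from the cell surface to chromatin, and protein kinase D is the stated target of a compound in both cocktails tested here. The 10 genes that encode these proteins were taken by name: the kinases Prkd1, Prkd2 and Prkd3, the deacetylases Hdac4, Hdac5, Hdac7 and Hdac9, and the factors Mef2a, Mef2c and Mef2d. All 10 were found among the 52323 genes counted, and all 10 were among the 19135 genes with enough counts to be tested.

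RNA was sequenced in bulk from damaged hepatocytes (dHeps), which were perfused from livers of mice injured with carbon tetrachloride (CCl4) and cultured for 16 days, with 2 libraries in each of 3 groups. All groups carried the genotype AAV-TBG-Cre:Rosa-LSL-tdTomato, in which a liver-specific promoter drives a viral Cre that switches on a red label, and all were kept in serum-free Hepatocyte Maintenance Medium. The study reports that this isolation enriched for cells that carried the label, but no sort of these cells on the label was described. The DMSO group received solvent. The 3C group received CID755673 at 50 µM, which inhibits protein kinase D, GSK429286A at 2 µM and ETC-1002 at 5 µM. The study names GSK429286A as an inhibitor of the kinase ROCK and ETC-1002 as an activator of the AMP-activated kinase. ETC-1002 also blocks ATP citrate lyase. For the 5C group the same doses were joined by salidroside at 5 µM, a glucoside from plants, and forskolin at 2 µM, which activates adenylate cyclase and so raises cAMP. No group received CID755673 alone, so a value that differed between 3C and DMSO cannot be assigned to 1 of its compounds, nor one that differed between 5C and 3C to salidroside or forskolin. The statistics section of the study describes replicates in general as separate and biological. The labels do not state whether the libraries of a group came from different animals or cultures, and the p-values measure the spread between these libraries.

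Protein kinase D is switched on by diacylglycerol and by the protein kinases C that diacylglycerol activates after receptors coupled to phospholipase C are engaged. It phosphorylates class IIa histone deacetylases, which then bind 14-3-3 proteins and leave the nucleus, and the MEF2 factors they had held silent become free to activate transcription. In liver, class IIa deacetylases are also known to enter the nucleus on fasting signals and to act with HDAC3 on FOXO factors at the genes of glucose synthesis. Most of this control lies in phosphorylation and localisation, which RNA levels do not measure.

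The libraries were deep and even, with totals of 65916573 to 69245895 estimated counts. The 8 hepatocyte markers examined were found in every group, and so were markers of macrophages, stellate cells and cholangiocytes. In DMSO the macrophage markers summed to more than the hepatocyte markers (12790 to 13810 against 1500 to 1728 counts scaled to the library total, CPM). The 6 cholangiocyte markers summed to 2903 to 3385 CPM in DMSO, 3520 to 3706 CPM in 3C and 2389 to 2687 CPM in 5C. Spp1 supplied most of that sum, at 2748 and 3232 CPM in DMSO and 2334 and 2058 CPM in 5C. At an adjusted p under 0.05 (edgeR), 5 of the 6 were higher and 1 lower in 5C against DMSO. In 3C against DMSO 4 were higher and 0 lower, and in 5C against 3C 0 were higher and 2 lower. Over all genes tested, 15.6% were higher and 13.1% lower in 5C against DMSO, and 12.7% and 11.8% in 3C against DMSO. In 5C against 3C the shares were 7.33% and 5.33%. These shares also stand beside the marker counts below. Lymphocyte markers were at or near 0, with at most 10 counts in a library. In bulk RNA, fewer cells of a type and less RNA per cell cannot be told apart, in any of the comparisons given here.

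In total 4 of the 10 genes differed between 5C and DMSO at an adjusted p under 0.05, beside 28.7% of all genes tested. Of these 2 were higher, beside 15.6% of all genes, and 2 lower, beside 13.1%. Between 3C and DMSO 5 differed, beside 24.5% of all genes, 3 higher (beside 12.7%) and 2 lower (beside 11.8%). Between 5C and 3C 1 differed, Mef2c, beside 12.7%. It was higher (beside 7.33%), none was lower (beside 5.33%), and 3 of the 10 had an unadjusted p under 0.05, beside 4734 of the 19135 genes tested. DESeq2 called 4, 5 and 1 in the same comparisons, beside 5888 of 21274, 5159 of 20171 and 3048 of 17965 genes. These counts over all genes also stand beside the unadjusted and DESeq2 counts of the lists below. The median log2 fold change of the 10 genes was 0.08, 0.04 and 0.03 in the order given, beside 0.00, 0.01 and -0.01 over all genes tested. Differences were tested with the quasi-likelihood F test of edgeR, and adjusted p-values are Benjamini-Hochberg values over all genes tested. Both cocktails were set against the same DMSO libraries, so the 2 comparisons with DMSO are not independent of each other. With a further limit of a change above 2-fold, 2 genes remained in 5C against DMSO (Hdac9 and Mef2c, beside 11.7% of all genes), 1 in 3C against DMSO (Hdac9, beside 9.45%) and 0 in 5C against 3C (beside 3.01%). Over all genes tested, the CPM of the groups did not overlap for 63.1% in 5C against DMSO, 61.3% in 3C against DMSO and 58% in 5C against 3C. A lack of overlap was thus common, and it is given below for single genes only as description.

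**Figure D1:**
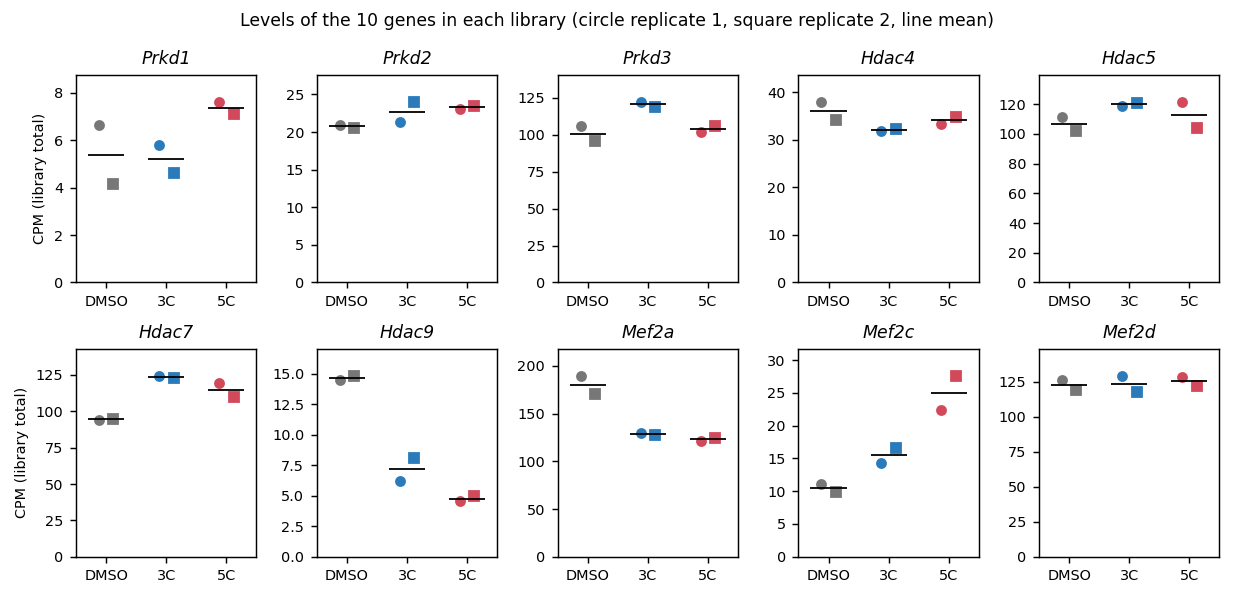
Counts scaled to the library total (CPM, vertical axes from 0, a scale for each gene) for the 10 genes in the DMSO, 3C and 5C groups. Circles are replicate 1, squares replicate 2 and lines the mean of both. Hdac9 lay at 14.5 and 14.8 CPM in DMSO and at 5.01 CPM or below in 5C, while Mef2c rose from 9.91 and 11.2 CPM in DMSO to 22.4 and 27.6 CPM in 5C.

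Per transcript length (FPKM), the 10 genes formed an upper and a lower set. The median over the 6 libraries was 28.4 FPKM for Hdac5, 25.2 for Mef2d, 24.1 for Hdac7, 23.01 for Mef2a and 17.7 for Prkd3, and among neighbours in this order only Mef2a and Prkd3 did not overlap. It was 6.23 FPKM for Prkd2, 5.17 for Hdac4, 3.56 for Mef2c, 1.55 for Prkd1 and 1.42 for Hdac9, where Mef2c and Prkd1 were the only neighbours that did not overlap. Both genes whose RNA changed more than 2-fold, Hdac9 and Mef2c, were in the lower set.

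The kinases differed in level far more than they changed. Prkd3 was the most abundant, at 15.4 to 20.1 FPKM over the 6 libraries, followed by Prkd2 at 5.60 to 6.72 and Prkd1 at 1.00 to 1.91. These ranges did not overlap. Prkd3 supplied 70.02% to 70.5% of the summed FPKM of the kinases in DMSO, 71.5% to 73.6% in 3C and 66.6% to 67.5% in 5C.

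Prkd1 encodes the kinase after which the family is named and lies at chr12:50387996-50696227 (GRCm39, minus strand). It was counted at 6.64 and 4.14 CPM in DMSO, 5.81 and 4.62 CPM in 3C, and 7.63 and 7.09 CPM in 5C. Both 5C libraries were above the other 4, but the DMSO replicates differed from each other by more than the 3C and 5C means did. The log2 fold change was 0.47 (95% interval -0.09 to 1.03, adjusted p = 0.203) for 5C against DMSO, -0.08 (-0.64 to 0.48, adjusted p = 0.874) for 3C against DMSO and 0.55 (-0.01 to 1.11, adjusted p = 0.213) for 5C against 3C. Without DMSO replicate 1, 5C against DMSO was 0.84 with an adjusted p of 0.0488.

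Prkd2, the isoform best known from lymphocytes, lies at chr7:16576822-16604389 on the plus strand. It stood at 21.0 and 20.6 CPM in DMSO, 21.3 and 24.04 CPM in 3C, and 23.04 and 23.5 CPM in 5C. All 4 libraries with compounds were above both DMSO libraries, by little. No comparison passed, with log2 fold changes of 0.18 for 5C against DMSO (95% interval -0.06 to 0.42, adjusted p = 0.248) and 0.09 for 3C against DMSO (-0.15 to 0.34, adjusted p = 0.603).

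Prkd3, at chr17:79256834-79328304 on the minus strand, was at 105.5 and 95.9 CPM in DMSO, 122.3 and 118.9 CPM in 3C, and 102.1 and 105.8 CPM in 5C. The 3C libraries were the highest, and the DMSO and 5C libraries overlapped. Prkd3 passed in 3C against DMSO with a log2 fold change of 0.23 (SE 0.07, adjusted p = 0.0411), a rise of 1.17-fold. In 5C against DMSO it was 0.07 (95% interval -0.09 to 0.22, adjusted p = 0.547), and in 5C against 3C it was -0.16 (-0.32 to -0.01, adjusted p = 0.186). The call in 3C was lost without 3C replicate 1 (adjusted p = 0.246), without 3C replicate 2 (0.167) and without DMSO replicate 2 (0.148), and by limma on FPKM (0.167 and 0.171).

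Of the class IIa histone deacetylases, Hdac9 fell with both cocktails, Hdac7 rose modestly, and Hdac4 and Hdac5 did not pass in any comparison. Per length the order was Hdac5 (24.7 to 30.5 FPKM), Hdac7 (19.8 to 25.7), Hdac4 (4.91 to 6.46) and Hdac9 (0.809 to 3.01). The ranges of Hdac5 and Hdac7 overlapped and the others did not.

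Hdac9, which also yields a short form that lacks the deacetylase domain and represses MEF2, lies at chr12:34097579-34967094 on the minus strand. It had 974 and 977 counts in DMSO, 412 and 554 in 3C, and 313 and 347 in 5C, that is 14.5 and 14.8 CPM, 6.22 and 8.12 CPM, and 4.53 and 5.01 CPM. Every DMSO library was above every 3C library and every 3C library above every 5C library. The log2 fold change was -1.60 (SE 0.18, adjusted p = 0.000183) for 5C against DMSO, a level 0.330 of that in DMSO, and -1.06 (SE 0.18, adjusted p = 0.00227) for 3C against DMSO, a level 0.479 of it.

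The further step of Hdac9 between 3C and 5C did not pass. It was -0.54 on the log2 scale (95% interval -0.94 to -0.13), with an unadjusted p of 0.0157 and an adjusted p of 0.0938. Within its family, Hdac9 made up 5.14% to 5.66% of the summed FPKM in DMSO, 2.00% to 2.60% in 3C and 1.32% to 2.13% in 5C.

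Hdac9 moved together with genes of macrophages. By the distance between log2 CPM profiles over the 6 libraries, the genes most like it among 10245 genes of at least 10 CPM on average were Cd33 (distance 0.176), Cd300lf (0.193) and Ms4a7 (0.246), all known from myeloid cells. Cd33 was at 45.1 and 44.5 CPM in DMSO, 21.1 and 23.3 CPM in 3C, and 14.1 and 15.3 CPM in 5C, a pattern of the same order and nearly the same size as that of Hdac9. The 10 macrophage markers examined, Adgre1, Cd68, Csf1r, Clec4f, Lyz2, C1qa, C1qb, C1qc, Ptprc and Mrc1, summed to 12790 to 13810 CPM in DMSO, 4446 to 4454 CPM in 3C and 2942 to 2985 CPM in 5C, and none was at 0 in both libraries of a group. In each of the 3 comparisons 9 of the 10 were lower. Clec4f had means of 2.68 CPM in DMSO, 2.64 CPM in 3C and 1.92 CPM in 5C. The part of the macrophage markers in the fall of Hdac9 was not tested.

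**Figure D2:**
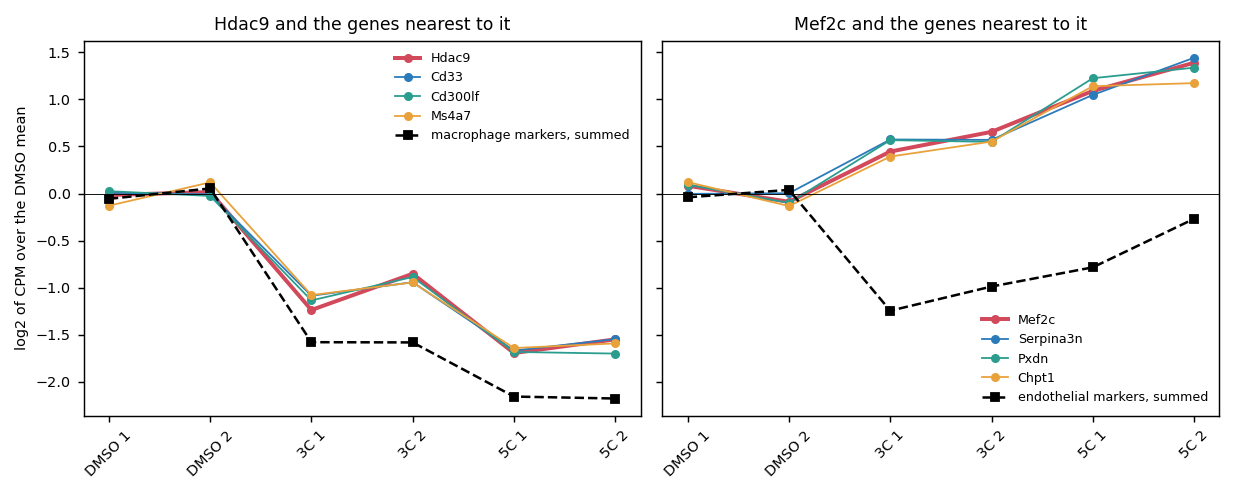
Profiles over the 6 libraries of Hdac9 (left) and Mef2c (right), the 3 genes nearest to each, and the summed CPM of 10 macrophage or 10 endothelial markers (dashed, squares), all as log2 of the CPM over the mean of the DMSO libraries. Lines only join the values of a gene. Hdac9 reached -1.69 and -1.55 in 5C, and the macrophage sum -2.16 and -2.18, while the endothelial sum was below 0 in every library with compounds and Mef2c above 0. Lyve1 supplied most of the endothelial sum in DMSO. Of 9 endothelial markers tested, 6 were higher and 1 lower in 5C against DMSO.

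Hdac7, known chiefly from endothelium and thymocytes, lies at chr15:97687372-97742383 on the minus strand. It stood at 94.3 and 94.6 CPM in DMSO, 124.3 and 122.6 CPM in 3C, and 119.2 and 109.7 CPM in 5C. All libraries with compounds were above both DMSO libraries, and 3C and 5C were close. Hdac7 rose in 3C by 0.35 on the log2 scale (SE 0.06, adjusted p = 0.00365) and in 5C by 0.29 (SE 0.06, adjusted p = 0.00832), while 5C against 3C gave -0.06 (95% interval -0.21 to 0.09, adjusted p = 0.661). The call in 5C was lost without 5C replicate 1 (adjusted p = 0.0577) and by limma on FPKM (0.0714 and 0.0743).

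The reads of Hdac7 cannot be fully told apart from those of a neighbour, since 24.1% of its exon bases overlap exons of Slc48a1 on the opposite strand and the use of strand in counting is not given in the sources used here. Slc48a1, a haem transporter examined after these values were seen, moved the same way, from 212.3 and 209.8 CPM in DMSO to 268.6 and 248.1 CPM in 3C and 317.4 and 277.8 CPM in 5C. Its log2 fold change was 0.26 in 3C (adjusted p = 0.0399) and 0.51 in 5C (adjusted p = 0.00109). Its part in the counts of Hdac7 was not tested.

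Hdac5, at chr11:102085245-102121072 on the minus strand, was at 111.2 and 102.1 CPM in DMSO, 118.7 and 121.1 CPM in 3C, and 121.7 and 103.8 CPM in 5C. The 5C replicates spanned nearly the whole range of the 6 libraries. The log2 fold change was 0.10 (95% interval -0.09 to 0.28, adjusted p = 0.429) in 5C and 0.14 (-0.05 to 0.32, adjusted p = 0.277) in 3C. Here too 31.2% of the exon bases overlap other genes, mostly G6pc3 on the opposite strand. G6pc3 was at 44.4 and 48.3 CPM in DMSO, 44.0 and 43.4 CPM in 3C, and 38.2 and 37.3 CPM in 5C. Its log2 fold change was -0.28 in 5C (adjusted p = 0.0377, edgeR) and -0.12 in 3C (adjusted p = 0.388). Its part in the counts of Hdac5 was not tested.

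Hdac4, at chr1:91855937-92123421 on the minus strand, was at 38.04 and 34.2 CPM in DMSO, 31.8 and 32.2 CPM in 3C, and 33.3 and 34.9 CPM in 5C. The 3C libraries were the lowest of the 6, and DMSO and 5C overlapped. It did not pass in 3C, with -0.21 (95% interval -0.41 to 0.00, adjusted p = 0.149), nor in 5C, with -0.06 (-0.27 to 0.15, adjusted p = 0.679).

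**Figure D3:**
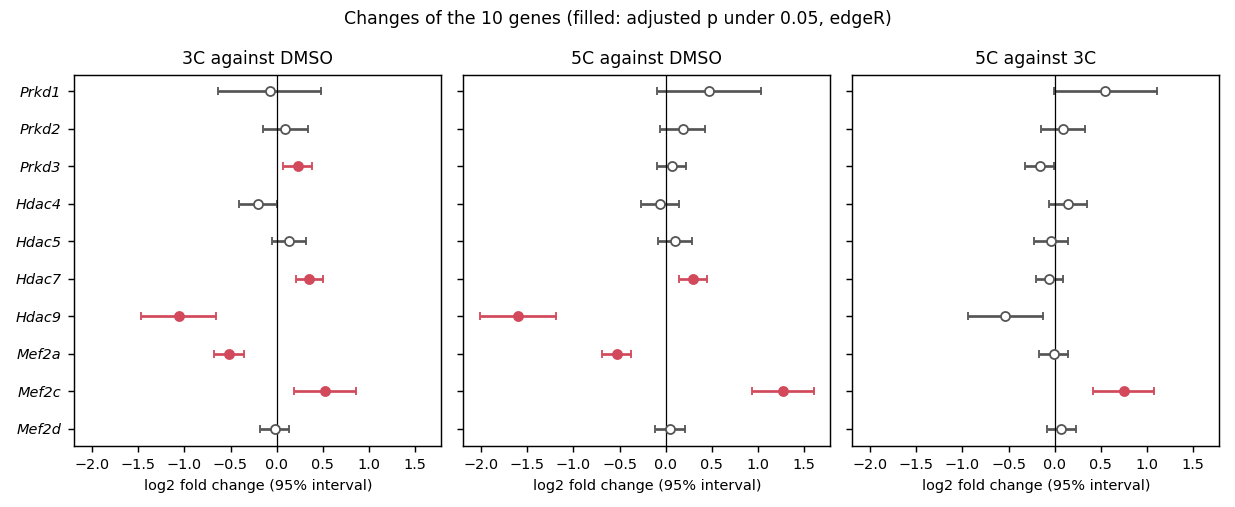
Log2 fold change of each gene (horizontal axis) with its 95% interval for each cocktail against DMSO and for 5C against 3C. Filled points have an adjusted p under 0.05 by edgeR. In 5C against DMSO Hdac9 (-1.60) and Mef2c (1.27) stand apart from the other 8 genes, which lie between -0.53 and 0.47.

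The MEF2 factors exchanged places. Mef2a fell with both cocktails, Mef2c rose with both and further with 5C, and Mef2d did not pass in any comparison. In DMSO, Mef2a made up 54.5% to 55.1% of the summed FPKM of the 3 factors, Mef2d 41.1% to 41.8% and Mef2c 3.66% to 3.81%. In 5C, Mef2a made up 41.1% to 41.7%, Mef2d 46.7% to 49.7% and Mef2c 9.24% to 11.7%. Mef2d was thus above Mef2a in all 4 libraries with compounds and below it in both DMSO libraries. The sum itself was 56.8 and 65.0 FPKM in DMSO, 50.7 and 52.3 FPKM in 3C, and 52.6 and 53.4 FPKM in 5C, lower in all 4 libraries with compounds.

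Mef2a, the family member known for its wide expression, lies at chr7:66880911-67022606 on the minus strand. It was at 189.5 and 171.1 CPM in DMSO, 129.5 and 127.9 CPM in 3C, and 121.5 and 124.7 CPM in 5C. Both DMSO libraries were above all others. As a log2 fold change this was -0.53 (SE 0.07, adjusted p = 0.000439) in 5C and -0.52 (SE 0.07, adjusted p = 0.000628) in 3C, levels 0.692 and 0.699 of that in DMSO. Between 5C and 3C it was -0.01, with a 95% interval of -0.17 to 0.15 and an adjusted p of 0.946. Of the exon bases, 6.97% overlap Lysmd4 on the opposite strand, which was at 9.39 to 12.6 CPM and did not pass in any comparison.

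Mef2c, known from heart, neurons, endothelium and hepatic stellate cells, lies at chr13:83652064-83815555 on the plus strand and overlaps no exon of another gene. It had 749 and 653 counts in DMSO, 950 and 1131 in 3C, and 1548 and 1909 in 5C, that is 11.2 and 9.91 CPM, 14.3 and 16.6 CPM, and 22.4 and 27.6 CPM. The 3 groups did not overlap, in the order DMSO, 3C, 5C. On the log2 scale the change was 1.27 (SE 0.15, adjusted p = 0.000209) for 5C against DMSO, 0.52 (SE 0.15, adjusted p = 0.0297) for 3C against DMSO and 0.74 (SE 0.15, adjusted p = 0.0103) for 5C against 3C, rises of 2.41-fold, 1.44-fold and 1.68-fold.

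The first of these calls for Mef2c was kept in all alternatives run, and the other 2 were not. The call in 3C against DMSO was lost without 3C replicate 1 (adjusted p = 0.0547), 3C replicate 2 (0.205), DMSO replicate 1 (0.0517) or DMSO replicate 2 (0.108), with values of 0.41 to 0.63. The call in 5C against 3C was lost without 3C replicate 1 (adjusted p = 0.102) or 5C replicate 2 (0.0881), and by limma on FPKM (0.0708 and 0.0594).

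The genes whose profiles were most like that of Mef2c were Serpina3n (distance 0.208), Pxdn (0.213) and Chpt1 (0.219), which encode an acute-phase protease inhibitor, a peroxidase of the extracellular matrix and an enzyme of phosphatidylcholine synthesis. Pxdn was at 36.2 and 31.7 CPM in DMSO, 50.2 and 49.6 CPM in 3C, and 79.3 and 85.7 CPM in 5C. Like Mef2c, it was lowest in DMSO and highest in 5C with no overlap.

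Markers of endothelial and mesenchymal cells, which are known to express Mef2c, also moved. Of 9 endothelial markers tested, 6 were higher and 1 lower in 5C against DMSO, 4 higher and 1 lower in 3C against DMSO, and 4 higher and 0 lower in 5C against 3C. Kdr, a receptor of endothelium, was at 8.44 and 8.57 CPM in DMSO, 9.09 and 10.8 CPM in 3C, and 19.8 and 21.8 CPM in 5C. Pecam1, Cdh5 and Tie1, from the same list, had mean levels of 0.788, 1.16 and 0.285 CPM in DMSO. Their means were 5.94, 10.7 and 3.79 CPM in 3C and 31.9, 57.8 and 18.6 CPM in 5C. Erg, an endothelial transcription factor, had 0 counts in both DMSO libraries, 28 and 66 in 3C, and 206 and 368 in 5C, and Clec4g, a marker of sinusoidal endothelium, was at 0 in both DMSO and both 5C libraries.

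The summed endothelial level was lower in both cocktails than in DMSO and higher in 5C than in 3C, with 427.8 to 451.8 CPM in DMSO, 185.6 to 221.8 CPM in 3C and 255.5 to 365.2 CPM in 5C. Lyve1, the marker that was lower, supplied most of the sum in DMSO, at 308.8 and 318.8 CPM, and was at 48.8 to 78.1 CPM in the libraries with compounds. The 10 stellate cell and fibroblast markers summed to 7985 to 9303 CPM in DMSO, 7021 to 7127 CPM in 3C and 11670 to 12590 CPM in 5C. Col1a1, Col1a2 and Col3a1 supplied most of that sum. Of the 10, 5 were higher and 2 lower in 5C against DMSO, and 4 were higher and 4 lower in 3C against DMSO. In 5C against 3C 6 were higher and 1 lower. The 4 mesothelial markers summed to 818.6 to 978.2, 1009 to 1096 and 1678 to 1713 CPM. The part of the endothelial, stellate cell and mesothelial markers in the rise of Mef2c was not tested.

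Mef2d, at chr3:88049185-88079398 on the plus strand, was at 126.3 and 119.3 CPM in DMSO, 129.2 and 117.7 CPM in 3C, and 128.3 and 122.2 CPM in 5C. The groups overlapped in all 3 comparisons. Its log2 fold change was 0.05 in 5C (95% interval -0.11 to 0.21, adjusted p = 0.683) and -0.02 in 3C (-0.18 to 0.14, adjusted p = 0.865).

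**Figure D4:**
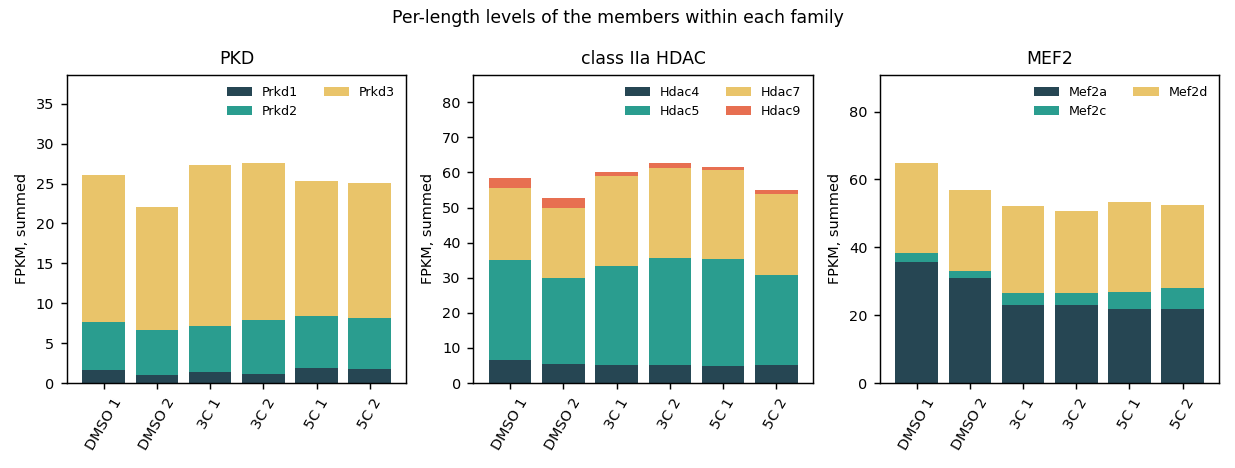
Summed FPKM (per-length level, vertical axes from 0) of the kinases, the class IIa histone deacetylases and the MEF2 factors in each library, stacked by gene. Prkd3 supplied 66.6% to 73.6% of the kinases in every library, and Mef2a fell from 54.5% to 55.1% of the MEF2 sum in DMSO to 41.1% to 41.7% in 5C while Mef2c grew.

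Since MEF2 factors can act on each other's genes, the promoters of the 10 genes were searched for the MEF2 element in RefSeq windows of 300 bases (250 before and 50 after each start, GRCm38.p6, both strands). Of 32851 windows of all genes, 3.19% held it. Of 18 windows of the 10 genes, 2 did, those of Mef2a and Hdac5, the first a gene that fell with both cocktails and the second one that did not pass. They are shown from 180 bases before to 30 after the start, with the element in capitals, at chr7:67372829-67373038 and chr11:102230143-102230352, both on the minus strand.
Mef2a: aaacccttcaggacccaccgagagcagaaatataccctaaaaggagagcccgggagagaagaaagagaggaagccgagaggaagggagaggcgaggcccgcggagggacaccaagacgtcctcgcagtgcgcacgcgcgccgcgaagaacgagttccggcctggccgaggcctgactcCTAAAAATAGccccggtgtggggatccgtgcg
Hdac5: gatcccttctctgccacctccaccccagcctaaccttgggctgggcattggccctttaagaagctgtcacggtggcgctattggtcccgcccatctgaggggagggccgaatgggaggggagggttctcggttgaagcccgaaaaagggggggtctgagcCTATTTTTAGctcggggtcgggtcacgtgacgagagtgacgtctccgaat

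The element of Mef2a spans the start, and that of Hdac5 begins 20 bases before it. The full element of the cAMP response, TGACGTCA, which was of interest because forskolin raises cAMP, was in 1.79% of all windows and in 0 of the 18. These matches describe letters in a window and not binding.

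Upstream of protein kinase D, the genes for G proteins, phospholipases C and diacylglycerol-activated protein kinases C changed in both directions. Of 14 such genes, all tested, 9 passed in 5C against DMSO (3 higher, 6 lower), beside 28.7% of all genes tested, 9 in 3C against DMSO (2 higher, 7 lower), beside 24.5%, and 1 in 5C against 3C (lower), beside 12.7%. Their median log2 fold change was -0.07, -0.21 and 0.01, beside 0.00, 0.01 and -0.01 over all genes. The single call between the cocktails, Plcg2, was lost without either 3C or either 5C library, which left 0 genes, while without either DMSO library 2 genes passed.

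Plcb2 and Plcg2, phospholipases C known chiefly from blood cells, fell most. Plcb2 was at 12.7 and 10.4 CPM in DMSO, 4.15 and 3.56 CPM in 3C, and 2.58 and 2.18 CPM in 5C, with log2 fold changes of -1.61 (SE 0.20, adjusted p = 0.000421) in 3C and -2.26 (SE 0.21, adjusted p = 5.18e-05) in 5C. Plcg2 fell by 1.18 in 3C and by 1.61 in 5C on the log2 scale, and Prkch, a protein kinase C of the diacylglycerol-activated kind, by 1.06 and 1.26. All libraries with compounds were below both DMSO libraries for these 3 genes, as they were for the sum of the macrophage markers, whose part was not tested.

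Plcb1, the phospholipase C beta that answers to Gq in many cells, went up instead. It stood at 7.30 and 6.54 CPM in DMSO, 15.8 and 14.9 CPM in 3C, and 15.1 and 15.0 CPM in 5C. In the test the log2 fold change was 1.12 (SE 0.13, adjusted p = 0.000244) in 3C and 1.14 (SE 0.13, adjusted p = 0.000176) in 5C, and 0.02 (adjusted p = 0.946) between the cocktails. Plcg1 rose in both cocktails as well (0.45 in 3C and 0.39 in 5C), and Prkce rose in 5C (0.47).

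Of 8 substrates of protein kinase D other than deacetylases, 2 passed in 5C (Hspb1 higher, Cert1 lower; 28.7% of all genes passed), 2 in 3C (1 higher, 1 lower; 24.5%) and 1 in 5C against 3C (Hspb1, higher; 12.7%), counts near those shares. Cert1, which carries ceramide to the Golgi, fell by 0.53 in 3C and by 0.67 in 5C on the log2 scale, and Hspb1, a small heat shock protein, rose by 0.36 in 5C. The median over the 8 was between -0.02 and 0.02 in the 3 comparisons. In 3C against DMSO 0 passed without 3C replicate 1 and 1 without 3C replicate 2, and in 5C against 3C 0 passed without either 3C library or without 5C replicate 1 and 2 without DMSO replicate 1.

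Of 15 other kinases that phosphorylate class IIa deacetylases or act before them, 4 passed in 5C (1 higher, 3 lower), beside 28.7% of all genes, 6 in 3C (2 higher, 4 lower), beside 24.5%, and 3 in 5C against 3C (all lower), beside 12.7%. Their median log2 fold change was -0.11 in 5C and -0.07 in 3C, with 0.03 for 5C against 3C. Camk4 was not tested, with at most 5 counts in a library. Without 5C replicate 1, 2 passed in 5C, and without 3C replicate 2, 3 passed in 3C.

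Camk1d, a calcium and calmodulin-dependent kinase, fell in steps. It was at 31.3 and 31.5 CPM in DMSO, 22.9 and 21.4 CPM in 3C, and 11.8 and 11.1 CPM in 5C, and the groups did not overlap. The change on the log2 scale was -0.54 (SE 0.10, adjusted p = 0.00417) in 3C, -1.44 (SE 0.10, adjusted p = 1.08e-05) in 5C and -0.90 (SE 0.10, adjusted p = 0.000937) between the cocktails. The call in 3C was lost without 3C replicate 2 (adjusted p = 0.0537). Camk2b rose in 5C by 1.82 (adjusted p = 0.0318), from 32 and 16 counts to 112 and 62, a call lost without 3C replicate 1 (0.0503), 5C replicate 1 (0.205) or DMSO replicate 2 (0.127), and 12.6% of its exon bases overlap Ykt6 on the opposite strand.

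Sik1, a salt-inducible kinase that is itself a target of cAMP signalling, was raised in 3C and not in 5C. It stood at 67.8 and 63.1 CPM in DMSO, 98.3 and 96.2 CPM in 3C, and 66.4 and 63.8 CPM in 5C. The 3C libraries were above all others, and 5C lay within the range of DMSO. The fitted log2 fold change was 0.54 (SE 0.07, adjusted p = 0.000376) in 3C against DMSO, 0.01 (adjusted p = 0.935) in 5C against DMSO and -0.53 (SE 0.07, adjusted p = 0.00152) in 5C against 3C. Prkaa2, a catalytic subunit of the AMP-activated kinase, had the same order, with 0.57 in 3C (adjusted p = 0.00708), 0.09 in 5C (adjusted p = 0.621) and -0.47 between the cocktails (adjusted p = 0.0307). Its call in 3C was lost without 3C replicate 1 (adjusted p = 0.0686), and that between the cocktails without any 1 of the 3C or 5C libraries (0.0751 to 0.226).

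Of the 7 genes for 14-3-3 proteins, which hold phosphorylated deacetylases in the cytoplasm, 1 passed in 5C (Ywhag, lower by 0.43 on the log2 scale), 2 in 3C (Ywhag lower by 0.33, Ywhaq higher by 0.33) and 0 in 5C against 3C, where 1 had an unadjusted p under 0.05 by edgeR and DESeq2 called 0. The shares over all genes were 28.7%, 24.5% and 12.7%. In 3C 0 passed without either 3C library and 1 without DMSO replicate 1 or 5C replicate 1, and in 5C 2 passed without 5C replicate 1 and 3 without DMSO replicate 2.

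Of the 6 genes of the HDAC3 corepressor complex, which supplies the deacetylase activity that class IIa proteins lack, 2 were higher in 5C (Tbl1x and Tbl1xr1), beside 15.6% of all genes, 2 in 3C (Hdac3 and Tbl1xr1), beside 12.7%, and 0 in 5C against 3C, where 1 had an unadjusted p under 0.05 by edgeR and DESeq2 called 0. Hdac3 was at 47.9 and 49.3 CPM in DMSO, 60.2 and 60.4 CPM in 3C, and 56.6 and 54.8 CPM in 5C, with both cocktails above DMSO. Its log2 fold change was 0.28 (SE 0.07, adjusted p = 0.0198) in 3C and 0.21 (SE 0.07, adjusted p = 0.0523) in 5C. The count in 3C fell to 0 without 3C replicate 1, 3C replicate 2 or DMSO replicate 1, and that in 5C to 0 without 5C replicate 2 and to 1 without any of the 4 libraries of DMSO and 3C.

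Among the 7 deacetylases of the other classes, 3 were higher in 5C (Hdac1, Hdac8 and Hdac11), beside 15.6% of all genes, and 3 in 3C (Hdac1, Hdac3 and Hdac11), beside 12.7%, with none lower, and 0 passed in 5C against 3C, where 1 had an unadjusted p under 0.05 by edgeR and DESeq2 called 0. Hdac11, the only class IV member, rose from 11.3 and 13.0 CPM in DMSO to 34.2 and 33.0 CPM in 3C and 28.1 and 26.2 CPM in 5C. All 4 libraries with compounds were above both DMSO libraries. As a log2 fold change this was 1.43 (SE 0.11, adjusted p = 2.64e-05) in 3C and 1.17 (SE 0.11, adjusted p = 6.04e-05) in 5C, although 17.6% of its exon bases overlap genes on the opposite strand. In 3C 1 gene passed without 3C replicate 1, and in 5C 1 without 5C replicate 1.

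Of 10 other regulators of MEF2, 3 passed in 5C (1 higher, 2 lower), beside 28.7% of all genes, 2 in 3C (both lower), beside 24.5%, and 0 in 5C against 3C, beside 12.7%. Mapk7 encodes ERK5, a kinase that activates MEF2. It was at 52.8 and 50.4 CPM in DMSO, 42.7 and 42.6 CPM in 3C, and 35.5 and 32.2 CPM in 5C, in 3 groups that did not overlap. On the log2 scale the change was -0.59 (SE 0.08, adjusted p = 0.000608) in 5C, -0.31 (SE 0.08, adjusted p = 0.0237) in 3C and -0.29 (SE 0.08, adjusted p = 0.0544) between the cocktails, the last with an unadjusted p of 0.00713. Of the acetyltransferases, Ep300 fell by 0.45 on the log2 scale in 5C (adjusted p = 0.00259).

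In 3C, 0 of these 10 genes passed without either 3C library and 1 without DMSO replicate 1. In 5C against 3C, 1 passed without DMSO replicate 1 and 2 without DMSO replicate 2. Between the cocktails 4 had an unadjusted p under 0.05 by edgeR, beside 4734 of 19135 genes, and DESeq2 called 2, beside 3048 of 17965.

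**Figure D5:**
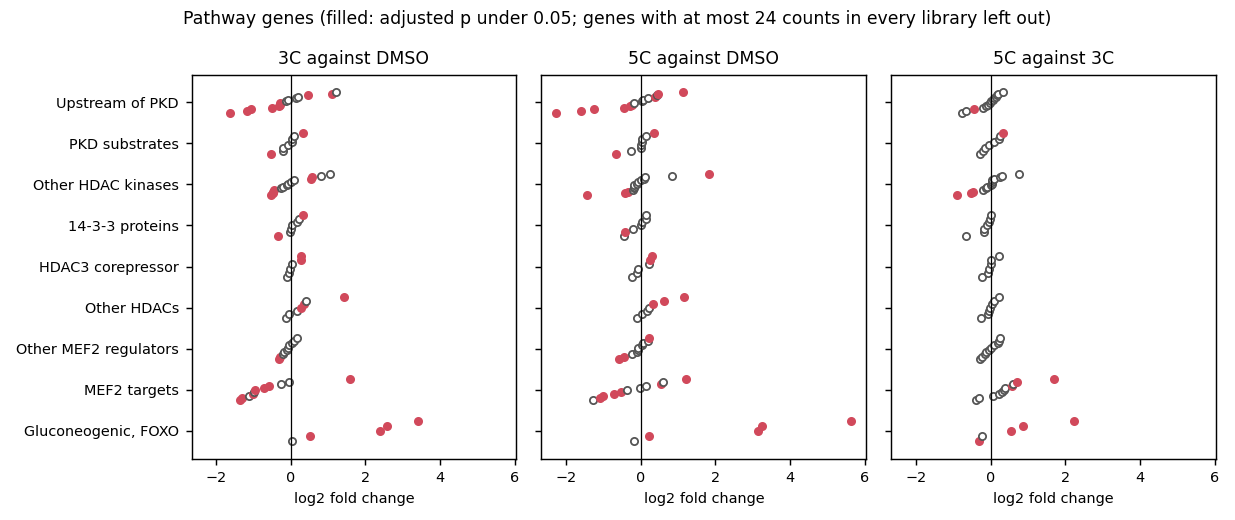
Log2 fold changes (horizontal axis) of the genes of the 9 pathway lists, a point for each gene, for each cocktail against DMSO and for 5C against 3C. Filled points have an adjusted p under 0.05 by edgeR, and 2 genes with at most 24 counts in every library are left out. The MEF2 targets have a median of -0.84 in 3C against DMSO, and the 3 genes of glucose synthesis lie above 2 in both comparisons with DMSO.

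Of 12 genes known as MEF2 targets in other tissues, 6 fell and 1 rose in 3C against DMSO, beside 11.8% and 12.7% of all genes, and 5 did not pass. In 5C against DMSO 4 fell and 2 rose, beside 13.1% and 15.6%, and in 5C against 3C 3 were higher, beside 7.33%. The median log2 fold change was -0.84 in 3C and -0.19 in 5C, and it was 0.33 between the cocktails. The medians over all genes were 0.01, 0.00 and -0.01. The 12 genes were chosen from general knowledge and most have regulators besides MEF2. In 5C against 3C 1 passed without 3C replicate 1, 3C replicate 2 or 5C replicate 2.

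Klf4, a zinc finger factor, was the most abundant target that fell, from 274.2 and 278.7 CPM in DMSO to 105.3 and 124.3 CPM in 3C and 118.4 and 138.3 CPM in 5C. Both DMSO libraries were far above all others. In the test the log2 fold change was -1.30 (SE 0.11, adjusted p = 3.36e-05) in 3C and -1.09 (SE 0.11, adjusted p = 6.80e-05) in 5C. Mmp10, a secreted metalloproteinase, was lower by 1.37 and 1.01 on the log2 scale (adjusted p = 0.000891 and 0.0041), Jun, a component of AP-1, by 0.59 and 0.53, and Des, an intermediate filament protein that also marks stellate cells, by 1.02 and 0.72.

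Ppargc1a, the coactivator that drives mitochondrial and fasting genes, rose. It was at 2.89 and 2.02 CPM in DMSO, 7.55 and 7.51 CPM in 3C, and 5.07 and 6.07 CPM in 5C. The groups did not overlap, and 3C was the highest. The change on the log2 scale was 1.59 (SE 0.24, adjusted p = 0.00112) in 3C, 1.20 (SE 0.23, adjusted p = 0.0044) in 5C and -0.38 (SE 0.23, adjusted p = 0.363) between the cocktails.

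Of the Nr4a genes, immediate early nuclear receptors that also answer to cAMP, Nr4a1 and Nr4a3 passed between the cocktails and Nr4a2 did not. Nr4a1 was at 13.3 and 12.1 CPM in DMSO, 12.5 and 12.8 CPM in 3C, and 17.5 and 19.0 CPM in 5C, with log2 fold changes of -0.03 (adjusted p = 0.886) in 3C, 0.54 (SE 0.12, adjusted p = 0.00929) in 5C and 0.58 (SE 0.12, adjusted p = 0.015) between the cocktails. The call against DMSO was lost without 5C replicate 2 (adjusted p = 0.0673), and that between the cocktails without 3C replicate 1 (0.123), 3C replicate 2 (0.101) or 5C replicate 2 (0.108).

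Nr4a3 was rarer, with 53 and 55 counts in DMSO, 31 and 20 in 3C, and 93 and 74 in 5C. It passed between the cocktails at 1.71 (SE 0.47, adjusted p = 0.0455), which was lost without any 1 of the 3C or 5C libraries (adjusted p = 0.107 to 0.255). Nr4a2 was at 5.09 and 4.90 CPM in DMSO, 3.25 and 2.01 CPM in 3C, and 3.75 and 3.91 CPM in 5C. It was not called in 5C against 3C (adjusted p = 0.216) and passed only in 3C against DMSO, at -0.96 (SE 0.27, adjusted p = 0.0305), a call lost without 3C replicate 2 (0.202), DMSO replicate 1 (0.0925), DMSO replicate 2 (0.0781) or 5C replicate 1 (0.0511).

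Bdnf, a neurotrophin, fell by 0.71 on the log2 scale in 3C (adjusted p = 0.00124), stood at -0.02 in 5C (adjusted p = 0.94) and was higher in 5C than in 3C by 0.70 (adjusted p = 0.00366).

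The MEF2 element was in 4 of 17 promoter windows of 11 of these target genes, those of Jun, Klf2, Mmp10 and Nr4a2, beside 3.19% of all windows. The genes were chosen as known MEF2 targets, so this share is description and no test. Klf2 did not pass in any comparison. The windows of Jun and Mmp10, which fell with both cocktails, are shown in the same way as above, at chr4:95052193-95052402 (minus strand) and chr9:7502162-7502371 (plus strand) of GRCm38.p6.
Jun: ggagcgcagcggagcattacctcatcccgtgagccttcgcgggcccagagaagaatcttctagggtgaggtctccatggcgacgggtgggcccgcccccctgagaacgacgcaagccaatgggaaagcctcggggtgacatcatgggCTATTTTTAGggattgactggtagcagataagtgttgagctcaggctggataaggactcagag
Mmp10: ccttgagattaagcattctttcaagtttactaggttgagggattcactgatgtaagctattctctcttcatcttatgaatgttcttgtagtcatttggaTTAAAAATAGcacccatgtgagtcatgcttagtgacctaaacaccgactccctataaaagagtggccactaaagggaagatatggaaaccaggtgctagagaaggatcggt

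The element of Jun, which has the same letters as that of Hdac5, begins 33 bases before the start, and that of Mmp10 begins 81 bases before it.

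Of 5 genes tested among FOXO factors and the genes of glucose synthesis on which class IIa deacetylases act with them in liver, 4 were higher in 5C, beside 15.6% of all genes, the same 4 were higher in 3C, beside 12.7%, and 4 passed in 5C against 3C (3 higher, 1 lower), beside 12.7%. The medians were 3.14, 2.39 and 0.56 in the order 5C, 3C and 5C against 3C. Hepatocyte markers moved with them against DMSO, since the 8 examined, among them Alb, Ttr and Hnf4a, were all higher in both comparisons with it. In 5C against 3C 2 of the 8 were higher, beside 7.33% of all genes, and 1 lower, beside 5.33%. The 8 markers summed to 1500 to 1728 CPM in DMSO, 9296 to 9747 CPM in 3C and 8869 to 13170 CPM in 5C. Their part in these rises was not tested.

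Pck1, a rate-limiting enzyme of glucose synthesis and a textbook target of cAMP, rose most. It had 225 and 94 counts in DMSO, 1618 and 1903 in 3C, and 6414 and 9912 in 5C, and the groups did not overlap. The fitted log2 fold change was 5.65 (SE 0.49, adjusted p = 0.00184) in 5C, 3.42 (SE 0.46, adjusted p = 0.0089) in 3C and 2.23 (SE 0.40, adjusted p = 0.0372) between the cocktails. The call in 3C was lost without either 3C library (adjusted p = 0.0734 and 0.0782), and that between the cocktails without any 1 of the 3C or 5C libraries (0.058 to 0.291).

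G6pc, the final enzyme of glucose release, was at 2.43 and 2.00 CPM in DMSO, 12.6 and 11.2 CPM in 3C, and 18.0 and 23.9 CPM in 5C. Its log2 fold change was 3.26 (SE 0.20, adjusted p = 4.19e-06) in 5C and 2.39 (SE 0.19, adjusted p = 3.07e-05) in 3C. Fbp1, fructose bisphosphatase, rose by 3.14 in 5C and by 2.58 in 3C. Between the cocktails G6pc rose by 0.87 (adjusted p = 0.0121) and Fbp1 by 0.56 (adjusted p = 0.0179), calls that were lost without 3C replicate 1, 3C replicate 2 or 5C replicate 2 (0.0604 to 0.139).

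Foxo1, the factor that class IIa deacetylases bring to deacetylation, followed Sik1 in having its highest level in 3C, with 66.7 and 62.8 CPM in DMSO, 96.9 and 93.9 CPM in 3C, and 72.4 and 77.4 CPM in 5C. As a log2 fold change this was 0.53 (SE 0.07, adjusted p = 0.000683) in 3C, 0.23 (SE 0.07, adjusted p = 0.0419) in 5C and -0.30 (SE 0.07, adjusted p = 0.0267) between the cocktails. The call in 5C was lost without any 1 library but 5C replicate 1 (adjusted p = 0.0679 to 0.224), and that between the cocktails without 3C replicate 1, 3C replicate 2 or 5C replicate 1 (0.137 to 0.216). Over the list, 0 genes passed in 5C against 3C without either 3C library, 2 without 5C replicate 1 and 1 without 5C replicate 2.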

How the data were processed

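The 6 RNA-seq libraries of dHeps (2 each of DMSO, 3C and 5C) were analysed from 2 tables. The authors mapped the reads to GRCm39 and deposited estimated counts per gene, whole numbers that were not normalized, and FPKM values, which the authors normalized to transcript length and sequencing depth. The submitters' processing notes name featureCounts, Subread and DESeq2. The annotation release and the use of strand in counting are not given in the sources used here. Among low values 4 was in excess (4816 entries, beside 3121 of 3 and 2303 of 5), so that several units may stand for a fragment.

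Groups came from the labels. The estimated counts were tested with edgeR 4.0.16 in R 4.3.3 (TMM, filterByExpr, robust quasi-likelihood F test), with all 6 libraries in a model with a coefficient for each group and no covariate, and Benjamini-Hochberg adjustment over 19135 genes. A permutation test of 2 libraries against 2 cannot go below p = 0.333 and was not used. Standard errors (SE) were derived from the F statistic. CPM was computed from library totals. Shares within a family were taken from the deposited FPKM, without a test.

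The members, the gene lists and the tests were chosen with earlier results of these data known. Named were all members and, from each list, genes that passed with a change above 2-fold or that had the largest changes (up to 4) among those that passed, and always Sik1, Ppargc1a, the Nr4a genes, Hdac3 and Mapk7. Profiles were compared for the 3 members with the widest range of group means by Euclidean distance of centred log2 CPM, among genes of at least 10 CPM. The replicate numbers were checked and did not pair the libraries. Alternatives were RLE and upper quartile normalization, no filter on low counts, DESeq2 1.42.0, the 2 groups compared alone, a replicate block, counts divided by 4, limma 3.58.1 on log2(FPKM + 1) and log2(FPKM + 0.1), a fold limit and leaving out each library, where a lone library is assumed to vary like the other groups. The steps were tested on simulated data. Gene positions and overlaps are from GENCODE on GRCm39, and promoter sequences are RefSeq windows on GRCm38.p6, which held all 10 members. Figures were drawn with matplotlib 3.10.9.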

Additional observations from a re-analysis of the deposited data

Results flagged for a closer look

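The test of 5C against 3C compares the cocktails directly. Of the 3 MEF2 targets that passed in it (Nr4a1, Nr4a3 and Bdnf), 2 also had values of opposite sign in 5C and 3C against DMSO. The values of these 2 in 3C against DMSO did not pass. Nr4a1 was higher in 5C by 0.58 on the log2 scale (adjusted p = 0.015, edgeR). Against DMSO it was near 0 in 3C, at -0.03 (adjusted p = 0.886, edgeR), and at 0.54 in 5C. Nr4a3 was higher in 5C by 1.71 (adjusted p = 0.0455, edgeR), from 31 and 20 counts in 3C to 93 and 74 in 5C, while 3C was at -1.12 and 5C at 0.59 against DMSO, of which neither passed. With 2 libraries in a group, single libraries that stand apart from their group could not be looked for by a test.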

How the results depend on the processing

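Of the calls for the 10 genes, those of Hdac9 against DMSO in both cocktails and Mef2c in 5C against DMSO were kept in every alternative run. Those of Mef2a against DMSO in both cocktails and Hdac7 in 3C against DMSO were kept in every alternative but the fold limit. Over all alternatives, single values of the 10 genes kept direction and side of the threshold 423 times, were weaker 18 times, stronger 1 time and reversed 8 times. Where a value was lost or moved, the cause was not tested.

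The number of the 10 genes that passed went from 4 to 2 in 5C against DMSO, from 5 to 1 in 3C against DMSO and from 1 to 0 in 5C against 3C with the fold limit, which adds a condition, and from 1 to 0 in 5C against 3C with limma on either FPKM scale. Leaving out 1 library gave 3 to 5 in 3C against DMSO (3 without 3C replicate 1, 3C replicate 2 or DMSO replicate 2) and 0 to 1 in 5C against 3C (0 without 3C replicate 1 or 5C replicate 2).

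The replicate number did not pair the libraries, since deviations of same-numbered libraries from their group means correlated at -0.0306, 0.000683 and 0.0161 over genes. With the replicate block the 10 genes gave 4 calls in 5C and 4 in 3C, each against DMSO, and 1 between the cocktails. The call lost was Prkd3 in 3C (0.229, adjusted p = 0.0525). The block took the HDAC3 corepressor genes from 2 to 1 in 5C against DMSO.

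Counts of list genes stayed within 1.5 times 337 times and moved 68 times. With limma on either FPKM scale the HDAC3 corepressor genes gave 1 in 3C and 0 in 5C against DMSO, other MEF2 regulators 1 in 3C, other deacetylase kinases 1 in 5C, MEF2 targets 1 in 5C against 3C, and genes upstream of protein kinase D and its substrates 0 in 5C against 3C. DESeq2 gave 5 deacetylase kinases, 3 substrates, 2 upstream genes and 2 MEF2 regulators in 5C against 3C, and counts divided by 4 gave 2 upstream genes and 2 MEF2 regulators there. With only the 2 groups compared, the HDAC3 corepressor gave 1 in 5C, the 14-3-3 genes 1 in 3C, and substrates 2 and MEF2 regulators 1 in 5C against 3C, where upper quartile normalization also gave 1 MEF2 regulator.

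Leaving out 1 library gave, in 5C against DMSO, 0 to 2 HDAC3 corepressor genes, 2 to 4 deacetylase kinases, 1 to 3 other deacetylases and 1 to 3 14-3-3 genes. In 3C against DMSO it gave 0 to 2 HDAC3 corepressor genes, MEF2 regulators and 14-3-3 genes, 3 to 6 deacetylase kinases, 1 to 3 other deacetylases and 0 to 3 substrates. In 5C against 3C it gave 0 to 5 genes of glucose synthesis and FOXO, 0 to 2 MEF2 regulators, upstream genes and substrates, and 1 to 3 MEF2 targets.

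Directions that reversed were of values near 0 that had not passed. On leaving out a library, 5C against DMSO ranged from -0.126 to 0.004 for Hdac4, -0.006 to 0.192 for Hdac5, -0.078 to 0.043 for Bdnf, -0.047 to 0.251 for Prkaa2 and -0.028 to 0.05 for Sik1. 3C against DMSO ranged from -0.363 to 0.287 for Prkd1, -0.09 to 0.04 for Mef2d and -0.083 to 0.02 for Nr4a1. 5C against 3C ranged from -0.147 to 0.051 for Hdac5, -0.053 to 0.016 for Mef2a, -0.289 to 0.024 for Cert1, -0.03 to 0.177 for Jun and -0.012 to 0.063 for Plcb1. With limma on log2(FPKM + 0.1) and log2(FPKM + 1), Sik1 was -0.012 on both in 5C against DMSO, Nr4a1 0.035 and 0.029 in 3C against DMSO, and Plcb1 -0.044 and -0.03 in 5C against 3C.

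With 2 libraries in a group, the smallest changes that passed among the 10 genes were 0.23 to 0.35 on the log2 scale, and for Prkd1, the least counted kinase, the 95% interval spanned -0.09 to 1.03 in 5C against DMSO.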

Other observations

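For Hdac9 the deposited tables did not keep the same ratio between the 5C libraries, with 0.809 and 1.17 FPKM beside 313 and 347 estimated counts. The DMSO libraries had 3.01 and 2.99 FPKM beside 974 and 977 estimated counts. How the authors set the length used for FPKM in each library is not given in the sources used here.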
